A study of Mus musculus with 20 samples.

Results

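Globin genes encode the protein chains of haemoglobin, and 7 of them were followed here through the bone marrow of wild-type and Fancd2-/- mice: the adult alpha genes Hba-a1 and Hba-a2, the adult beta genes Hbb-b1 and Hbb-b2, the embryonic beta-like genes Hbb-bh1 and Hbb-y, and the embryonic alpha-like gene Hba-x. They were chosen by their symbols and not by a measured value, from a count matrix of 20377 gene symbols. They fill 9 of its 26005 rows and lie at 6 separate genome positions. A further symbol of the matrix, Beta-s, was described beside them after its counts had been seen, because it lies at the other adult beta position and RefSeq lists it under the name Hbb-bs. Beta-s is not among the 7 and enters none of the counts of members below.

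The study asked how an oral androgen changes gene expression in mice without Fancd2, a DNA repair gene of the Fanconi anaemia pathway. All mice were 129S4 males aged 4 months, kept from weaning for 3 months either on a diet holding 300 mg of oxymetholone, an anabolic androgen, per kg or on placebo. KSL cells, the cKit+ Sca1+ Lin- fraction that holds blood stem and early progenitor cells, gave 3 libraries in each of 4 groups, wild-type or Fancd2-/- mice on either diet, each library from a pool of 5 mice. Erythroblasts sorted as Ter119+/CD71high/FSChigh, young red cell precursors, came from wild-type mice only, with 1 mouse per library and 3 libraries on each diet. Whole bone marrow on placebo gave a single library for each genotype, pooled from 5 mice, so it has no replicates. Fancd2-/- erythroblasts were not analysed here. Oxymetholone and placebo KSL libraries were paired by flow cytometer setting, and 3 pairs of each genotype carry the same number below.

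Adult haemoglobin holds alpha and beta chains around haem, and embryonic red cells made in the yolk sac use the alpha-like and beta-like chains of Hba-x, Hbb-bh1 and Hbb-y instead. The beta-like genes stand in a row on chromosome 7 and the alpha-like genes in another on chromosome 11, and each row is switched on by a distant enhancer region together with erythroid factors such as GATA1 and KLF1. Globin RNA builds up as erythroblasts mature and becomes the most abundant RNA of the red cell line. Alpha and beta chains are needed in balance, because free chains harm the cell.

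Levels are given as CPM, the counts of a gene per 1000000 counts over all genes of the library. Library totals ran from 17036779 to 20663912 counts in erythroblasts and from 10777241 to 121346980 in KSL cells, and were 99649952 and 106378301 in marrow. The targeted gene was lower but not absent: Fancd2 stood at 7.68 ± 0.871 CPM on placebo and 7.30 ± 1.33 CPM on oxymetholone (SD, n = 3) in Fancd2-/- KSL cells, at 19.5 ± 3.21 and 20.7 ± 2.95 CPM in wild-type KSL cells, and at 7.13 and 26.3 CPM in Fancd2-/- and wild-type marrow. The populations carried the markers of their labels, since the red cell membrane gene Slc4a1 ranged from 26191 to 29106 CPM in erythroblasts and 14 stem and progenitor markers summed to 1.71 to 2.82 CPM there, against 3683 to 5773 CPM in KSL cells. Before the results, 2 KSL libraries have to be named because they stood apart from the other 10 in adult globin counts: Fancd2-/- placebo 2 and wild-type placebo 3. They held 31887779 and 10777241 counts, the latter the fewest of all. Both were singled out after their values were seen, and results that rest on them are given with and without them.

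The adult genes are close copies, and this decides what their counts can tell apart. In mm9, the build the reads were mapped to, Hba-a1 lies at chr11:32183672-32184486 and Hba-a2 at chr11:32196492-32197310, both on the plus strand, with Hba-x ahead of them at chr11:32176600-32178115. On the minus strand of chromosome 7 the row named Hbb-b1 covers chr7:110961042-110962437, Beta-s covers chr7:110975037-110976442, Hbb-bh1 covers chr7:110990152-110991676 and Hbb-y covers chr7:111000268-111001721. Each has 3 exons in the GENCODE annotation of that build. The coding parts of Hba-a1 and Hba-a2 differ at a single base, C381T, and those of the Hbb-b1 row and Beta-s differ by T417C near their ends. Positions are counted from 1 at the A of the start codon, and both changes fall on the last base of a codon. The stretches around them are shown because a read of the coding part has to cover that base to separate the copies, and the differing base is in capitals. The substitutions give the base of Hba-a1 and of the Hbb-b1 row first.
Hba-a1: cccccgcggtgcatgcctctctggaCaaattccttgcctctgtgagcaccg
Hba-a2: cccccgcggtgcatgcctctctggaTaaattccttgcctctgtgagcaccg
Hbb-b1 row: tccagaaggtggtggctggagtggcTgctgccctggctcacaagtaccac
Beta-s: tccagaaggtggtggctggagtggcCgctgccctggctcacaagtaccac

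Of the 51-base windows within exons, the length of the reads, 51 of 409 (12.47%) at Hba-a1 and 51 of 413 (12.35%) at Hba-a2 occur once in the genome. For the Hbb-b1 row the count is 196 of 476 windows (41.18%) and for Beta-s 209 of 489 (42.74%), and the remaining 280 windows of each are found at the other. Every such window of Hba-x, Hbb-bh1 and Hbb-y occurs once, so the embryonic genes are free of this limit. How reads that match several places were treated is not given in the sources used here. The matrix itself lists both alpha symbols at both alpha positions with identical counts in 20 of 20 libraries, so each symbol is used here at its own GENCODE position. The rows Hbb-b1 and Hbb-b2 cover the same position of chromosome 7, which GENCODE calls Hbb-b2, and the Hbb-b2 row held 95.3 to 101% of the Hbb-b1 count in erythroblasts and marrow. The pair Hbb-b1 and Hbb-b2 is therefore a single measurement here, and the second adult beta gene is the Beta-s row, which GENCODE calls Hbb-b1. The mice were of strain 129S4 and the reference genome is C57BL/6J, and how strain differences in these genes act on the counts was not tested.

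The 110 bases before each gene's start in the matrix show what the globin promoters share. Motifs were searched on both strands and are in capitals. They are CCAAT (the CCAAT box), then CACCC as found at the core of KLF1 sites, then GATAA as a form of the GATA motif, and at the start TATAA (the TATA box) or its variant ATAAAA.
Hba-a1 promoter, chr11:32183562-32183671, plus strand: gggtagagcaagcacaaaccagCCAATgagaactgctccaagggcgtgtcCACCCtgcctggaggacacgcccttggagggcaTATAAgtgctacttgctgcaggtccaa
Hbb-b1 row promoter, chr7:110962438-110962547, minus strand: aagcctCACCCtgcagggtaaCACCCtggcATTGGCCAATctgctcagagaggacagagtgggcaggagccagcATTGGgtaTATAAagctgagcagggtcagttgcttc
Beta-s promoter, chr7:110976443-110976552, minus strand: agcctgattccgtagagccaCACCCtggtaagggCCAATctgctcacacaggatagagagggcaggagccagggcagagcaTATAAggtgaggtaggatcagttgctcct
Hba-x promoter, chr11:32176490-32176599, plus strand: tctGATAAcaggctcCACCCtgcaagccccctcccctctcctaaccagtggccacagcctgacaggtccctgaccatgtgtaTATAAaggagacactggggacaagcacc
Hbb-bh1 promoter, chr7:110991677-110991786, minus strand: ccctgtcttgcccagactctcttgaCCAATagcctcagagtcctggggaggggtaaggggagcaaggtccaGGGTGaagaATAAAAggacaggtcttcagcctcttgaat
Hbb-y promoter, chr7:111001722-111001831, minus strand: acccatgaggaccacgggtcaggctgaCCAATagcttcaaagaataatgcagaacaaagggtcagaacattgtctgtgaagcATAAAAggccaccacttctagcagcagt

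All of these windows except that of Hba-x hold CCAAT, which 21.83% of 20323 promoters of the same length hold. All except that of Hbb-y hold CACCC, which 30.58% of promoters hold, and in Hbb-bh1 it reads on the other strand. TATAA starts between 29 and 27 bases before the start in Hba-a1, the Hbb-b1 row, Beta-s and Hba-x, and 30 bases before it in Hba-a2, whose window is not shown, against 10.86% of promoters with TATAA anywhere in the window. Hbb-bh1 and Hbb-y have ATAAAA instead, from 30 and 28 bases before the start, which 6.78% of promoters hold. Hba-x alone among the windows shown has GATAA, found in 8.006% of promoters. These are matches of letters in the reference and not measurements of binding. Across the coding parts, the Hbb-b1 row was 73.7% identical to Hbb-bh1 and 74.2% to Hbb-y, Hbb-bh1 and Hbb-y were 76.4% identical, and Hba-a1 and Hba-x were 61.7% identical.

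In wild-type erythroblasts the adult globins were among the genes with the most counts, and the embryonic genes stayed at a few counts. Among all symbols ranked by CPM, Beta-s was at rank 1 and Hba-a1 at rank 3 in each of the 6 libraries, Hba-a2 at ranks 11 to 16 and Hbb-b1 at ranks 12 to 13. In marrow Beta-s was at rank 2, Hba-a1 at 5, Hba-a2 at 6 and Hbb-b1 at 10 in both libraries. Hba-a1, an adult alpha gene, read 13863, 12425 and 12748 CPM in the 3 placebo mice and 13849, 12353 and 11922 CPM in the 3 mice given oxymetholone. Hba-a2 read 5617, 5043 and 5188 CPM in the placebo mice, and 5637, 4972 and 4872 CPM under oxymetholone. The diets overlapped for both alpha genes, and mouse 1 of each diet was the highest in its group. Hbb-b1 read 5636, 5295 and 5281 CPM in the placebo mice, and 5551, 5191 and 5546 CPM under oxymetholone. Hbb-b2, counted over the same position, read 5686, 5352 and 5322 CPM in the placebo mice, and 5610, 5247 and 5592 CPM under oxymetholone. The diets overlapped here too, and each adult row varied little between mice. Beta-s read 46980, 41474 and 43480 CPM in the placebo mice, and 47670, 42258 and 43038 CPM under oxymetholone, the highest of the globin rows in every erythroblast library.

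Counting each position once, the 2 alpha positions, the Hbb-b1 row and Beta-s together took 6.42 to 7.27% of all counts in the 6 erythroblast libraries. The members alone, without Beta-s, took 2.23 to 2.51%. In whole marrow the same sum was 6.31% in wild-type and 6.19% in Fancd2-/- mice, of which the members made up 2.96 and 2.87%. Marrow holds maturing red cells beyond the erythroblast gate as well as white cells, and the level per red cell was not measured. In a mixed sample, fewer cells of a type and less RNA per cell cannot be told apart.

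**Figure D1:**
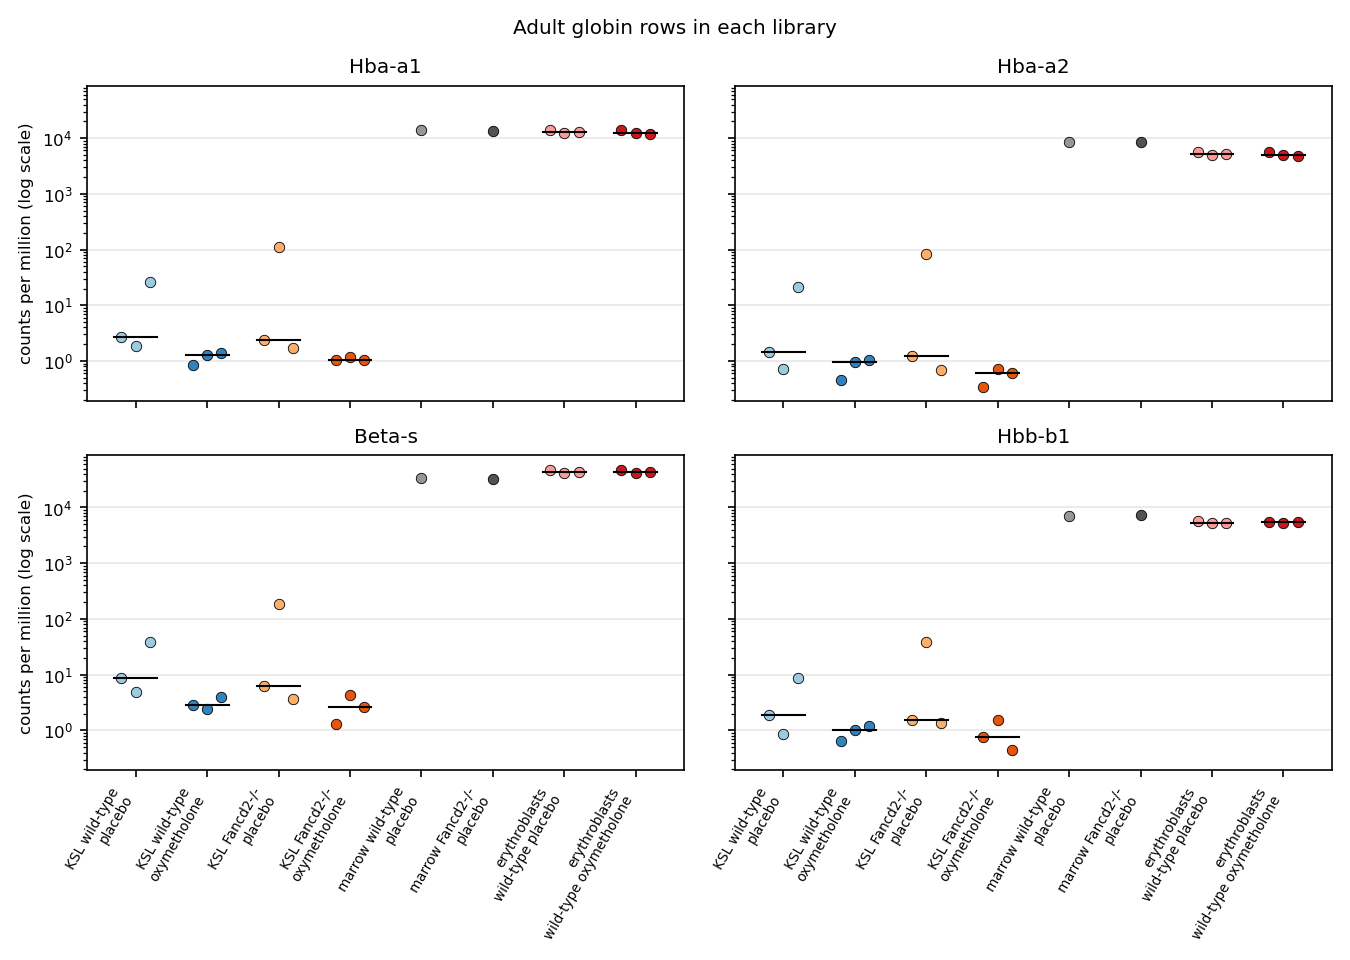
CPM (log axis) of the adult globin rows Hba-a1, Hba-a2, Hbb-b1 and Beta-s in each of the 20 libraries, with 1 point per library, grouped by cell population, genotype and diet, and a line at the median of groups of 3. Erythroblast and marrow libraries lie together near the top, and in KSL cells Fancd2-/- placebo 2 (112 CPM of Hba-a1) and wild-type placebo 3 (25.7 CPM) lie above the other 10.

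Levels can be compared between genes only per length. In CPM per kilobase of exon, the 6 erythroblast libraries had 69093 ± 4010 for Beta-s, 23005 ± 1458 for Hba-a1, 9275 ± 587 for Hba-a2 and 8653 ± 292 for Hbb-b1 (SD, n = 6). Hba-a2, from 8654 to 10012, and Hbb-b1, from 8292 to 9004, overlapped, while the other neighbours in this order did not. The embryonic genes followed with 1.10 ± 0.310 for Hbb-y, 0.944 ± 0.623 for Hba-x and 0.818 ± 0.360 for Hbb-bh1, and they overlapped each other. The mean of the 2 marrow libraries kept the adult order, with 52129 for Beta-s, 24361 for Hba-a1, 15085 for Hba-a2 and 11268 for Hbb-b1 per kilobase. Its embryonic order was different, with Hba-x at 1.42, Hbb-bh1 at 0.592 and Hbb-y at 0.510.

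The split between copies differed between erythroblasts and marrow, with the limit that shared reads could be placed in ways the sources do not state. The Hba-a1 position held 71.0 to 71.3% of alpha counts in the 6 erythroblast libraries, against 62.0% in wild-type and 61.2% in Fancd2-/- marrow. In KSL cells it held 57.3% in Fancd2-/- placebo 2 (exact binomial 95% interval 56.0 to 58.5%) and 55.2% in wild-type placebo 3 (50.7 to 59.6%). The other 10 KSL libraries had only 20 to 313 alpha counts each. Their shares ran from 57.1 to 75%, and pooled they gave 65.2% (62.4 to 67.9%, 776 of 1190 counts). Of these, wild-type placebo 2 stood at 71.9% (66.6 to 76.8%), Fancd2-/- placebo 3 at 71.8% (60.5 to 81.4%) and Fancd2-/- oxymetholone 1 at 75% (50.9 to 91.3%), so the alpha share did not separate KSL cells from erythroblasts. It lay lower in marrow and in both KSL libraries that stood apart than in any erythroblast library. The same held for the other 10 KSL libraries apart from those just named. Wild-type oxymetholone 2, for instance, stood at 57.5% (51.3 to 63.6%). At the beta positions Beta-s held 88.6 to 89.6% of counts in erythroblasts, 82.9 and 82.2% in wild-type and Fancd2-/- marrow, 82.7% (81.8 to 83.6%) in Fancd2-/- placebo 2 and 81.8% (78.2 to 85.1%) in wild-type placebo 3. The other 10 KSL libraries ran from 63.3 to 85.6%. All 12 KSL libraries thus lay below the erythroblasts on the beta share, and the 2 that stood apart lay within the range of the other 10. The interval of the highest, Fancd2-/- oxymetholone 3 (81.5 to 89.1%), reached the erythroblast values. Intervals cover counting error only, as reads without molecular identifiers are not independent molecules.

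**Figure D2:**
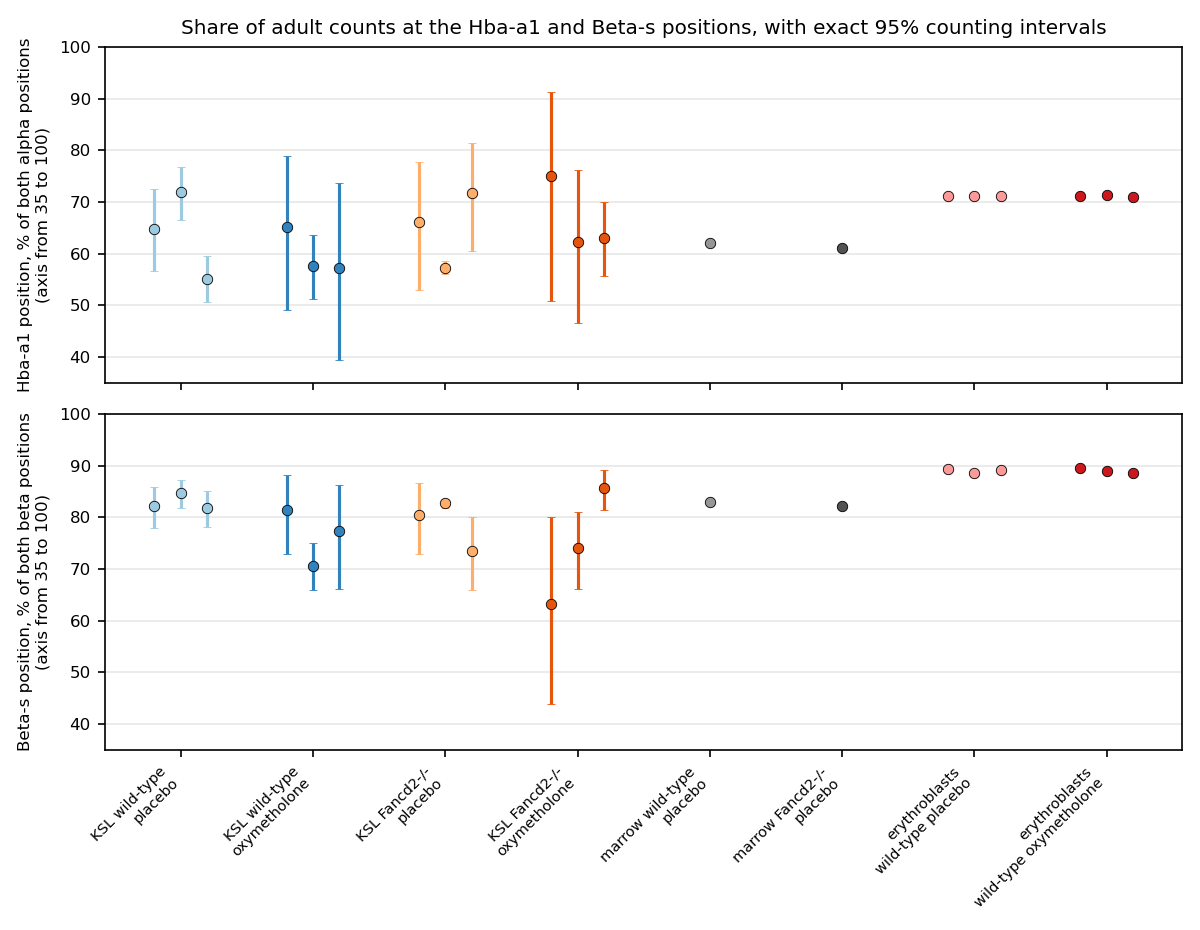
Share of adult alpha counts at the Hba-a1 position (upper) and of adult beta counts at the Beta-s position (lower), in percent, for each library with exact 95% counting intervals, on axes that start at 35%. The erythroblast libraries lie at 71.0 to 71.3% and 88.6 to 89.6% with hardly any spread, marrow lies lower on both, and the 12 KSL libraries spread from 55.2 to 75% and from 63.3 to 85.6%.

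Alpha and beta levels were set against each other per length, which is how the balance of chains shows at the RNA level. With Beta-s included, erythroblasts held 0.416 ± 0.0112 of adult alpha per unit of adult beta (SD, n = 6), and marrow 0.640 in wild-type and 0.608 in Fancd2-/- mice. Over the members alone the ratio was 3.74 ± 0.190 in erythroblasts and 3.68 and 3.35 in marrow. The side of 1 on which this ratio falls thus turns on whether Beta-s is counted. It may also depend on how reads matching several places were treated, which is not known and was not tested. Windows found once made up 12.47 and 12.35% at the alpha positions, against 41.18 and 42.74% at the Hbb-b1 row and Beta-s. Erythroblasts and wild-type KSL cells differed by 0.35 on the log2 scale over the members (exact permutation test, two-sided, 6 against 6 libraries, p = 0.156, adjusted over 4 such tests 0.312). With Beta-s the difference was -0.51 (exact permutation test, p = 0.002165, the smallest these libraries can give, an alternative added after seeing the data), so its sign changed. Without wild-type placebo 3 the difference over the members was 0.55 with an adjusted p of 0.004329 in the same exact permutation test, so this library decided the call. Between the diets the ratio in erythroblasts differed by -0.04 over the members (exact permutation test, two-sided, p = 0.7), and 3 against 3 mice cannot give a p under 0.1. The ratio of the Hbb-b2 row to the Hbb-b1 row differed between erythroblasts and wild-type KSL cells by 0.0994 on the log2 scale (exact permutation test, p = 0.002165, adjusted 0.008658), but both rows cover a single position and this is no measure of the genes.

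The embryonic genes were detected in erythroblasts and marrow at a trace. Hba-x had 9, 25 and 4 counts in the placebo erythroblasts and 12, 7 and 9 on oxymetholone. Hbb-y had 7, 16 and 19 counts on placebo and 14, 13 and 11 on oxymetholone, and Hbb-bh1 had 9, 15 and 15 on placebo and 6, 6 and 7 on oxymetholone. Only for Hbb-bh1 did the diets not overlap. How many of all genes separate the diets in this way in erythroblasts is not given here, and edgeR did not call Hbb-bh1. Its separation is therefore a description of a few counts and not evidence of an effect of the diet. The highest level of any embryonic gene was 1.27 CPM, for Hba-x in placebo mouse 2. In the 12 KSL libraries together Hba-x had 2 counts, Hbb-y had 1 and Hbb-bh1 had none. In marrow, Hba-x had 72 counts in the wild-type and 104 in the Fancd2-/- library, Hbb-bh1 had 42 and 32, and Hbb-y had 32 and 33.

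**Figure D3:**
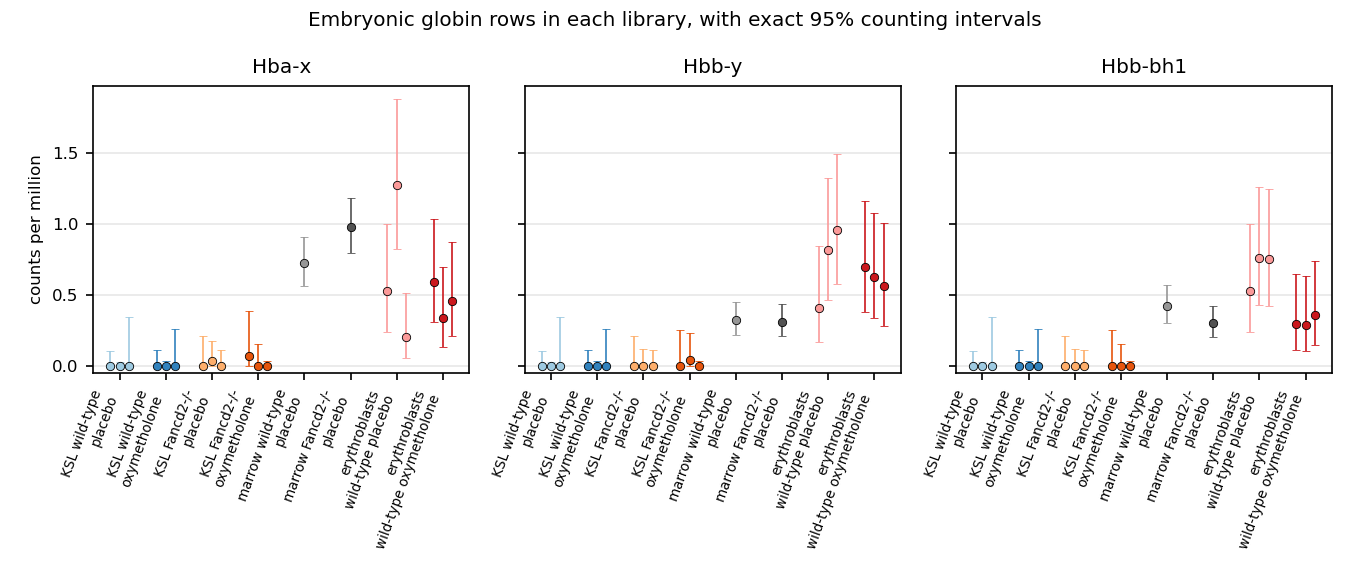
CPM of Hba-x, Hbb-y and Hbb-bh1 in each of the 20 libraries, by cell population, genotype and diet, on a linear axis with exact 95% counting intervals. Erythroblast and marrow libraries reach at most 1.27 CPM, and the KSL libraries lie at or near 0, with 3 counts of these genes in all 12 together.

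Against KSL cells of the same diet, the adult globins rose in erythroblasts to a degree few genes did. On placebo, edgeR's quasi-likelihood test with Benjamini-Hochberg adjustment over 12528 genes gave log2 differences of 12.03 ± 1.66 (SE) for Hba-a1 (adjusted p = 0.00188), 11.28 ± 1.89 for Hba-a2 (0.00397), 12.37 ± 1.19 for Hbb-b1 (4.44e-04), 12.46 ± 1.21 for Hbb-b2 and 12.84 ± 1.32 for Beta-s (5.74e-04). All 4 adult members were called higher, and 37.2% of all genes tested were called higher. Ranked from the highest difference they stood at 36, 48, 32 and 31, and Beta-s at 24. Wild-type placebo 3 sets the size and error of these values, and without it the differences were 13.89 for Hba-a1, 13.75 for Hba-a2, 13.45 for Hbb-b1, 13.58 for Hbb-b2 and 14.07 for Beta-s.

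On oxymetholone, where no KSL library stood apart, the differences were larger and their errors smaller. They were 14.77 ± 0.19 for Hba-a1, 13.98 ± 0.23 for Hba-a2, 13.87 ± 0.18 for Hbb-b1, 13.94 ± 0.18 for Hbb-b2 and 15.30 ± 0.19 for Beta-s (SE, edgeR, 12493 genes). All 4 adult members were again called higher, where 37.6% of genes were, and they ranked at 12, 17, 19 and 18, with Beta-s at 9. The 2 comparisons share no library. These values depend on scaling: the median of all genes was -0.67 with TMM normalization on placebo and -2.07 without normalization, and the higher share of all calls was 40.9% with TMM and 20.6% without. Hba-a1 still stood at 10.56 without normalization, so its direction did not turn.

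For the embryonic genes only lower bounds can be given, because the 3 wild-type KSL libraries of each diet held no count of them. The bounds are set against a floor of 3 counts over the group. They take the pooled erythroblast level as measured, without its counting error or the spread between mice. For Hba-x the placebo mice ran from 0.202 to 1.27 CPM. On placebo the pooled level in erythroblasts was 37.6-fold the floor for Hba-x, 38.6-fold for Hbb-bh1 and 41.5-fold for Hbb-y. On oxymetholone the bounds were 25.1-fold, 17.0-fold and 34.1-fold. A further member passed the filter on low counts in each comparison, Hbb-bh1 on placebo and Hbb-y on oxymetholone, and was called. It passed only through the erythroblasts, where it is higher, so its call adds nothing to the bounds.

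Oxymetholone did not change globin RNA in wild-type erythroblasts by an amount this test called. The log2 differences were -0.03 ± 0.08 for Hba-a1, -0.03 ± 0.08 for Hba-a2, 0.01 ± 0.06 for Hbb-b1 and 0.02 ± 0.08 for Beta-s (SE, 3 against 3 mice). These are small values with small errors, and the mice of both diets overlapped for each of these adult rows. The embryonic genes gave -1.10 ± 0.38 for Hbb-bh1, -0.22 ± 0.36 for Hbb-y and -0.51 ± 0.55 for Hba-x. Of the 7 members 0 were called by edgeR, DESeq2 or limma, 0% of 9694 genes were called by edgeR, and 123 genes had an unadjusted p under 0.05. Hbb-bh1 was the single member among those 123 (unadjusted p = 0.0129), with an adjusted p of 0.9995 in edgeR's quasi-likelihood test, and it rests on 58 counts in all.

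KSL cells held adult globin RNA at a low level, and 2 placebo libraries carried most of its spread. Hba-a1 went from 2.36 CPM on placebo to 1.04 CPM on oxymetholone in pair 1 of the Fancd2-/- cells, from 112 to 1.16 CPM in pair 2 and from 1.74 to 1.05 CPM in pair 3. In wild-type cells it went from 2.70 to 0.862 CPM, from 1.85 to 1.29 CPM and from 25.7 to 1.39 CPM. The oxymetholone library was the lower in 6 of 6 pairs, and in both genotypes a single placebo library lay far above the others. Hba-a1 was at most 1.39 CPM in the oxymetholone libraries and at least 1.74 CPM in the placebo libraries, so the diets did not overlap. How many of all genes separate the diets in this way, or are lower in every pair, is not given here. The separation is therefore a description of this gene and not evidence of an effect of the diet. For Hba-a2, Hbb-b1, Hbb-b2 and Beta-s the diets overlapped. Hba-a2 went from 1.21 to 0.345, 83.8 to 0.704 and 0.684 to 0.613 CPM in the Fancd2-/- pairs and from 1.46 to 0.462, 0.725 to 0.953 and 20.9 to 1.05 CPM in the wild-type pairs. Hbb-b1 went from 1.55 to 0.759, 38.9 to 1.53 and 1.34 to 0.444 CPM in the Fancd2-/- pairs and from 1.88 to 0.647, 0.874 to 1.02 and 8.63 to 1.18 CPM in the wild-type pairs. Both, and Hbb-b2, were lower on oxymetholone in 5 of 6 pairs, the exception being wild-type pair 2. Beta-s went from 6.39 to 1.31, 186 to 4.39 and 3.70 to 2.65 CPM in the Fancd2-/- pairs and from 8.72 to 2.83, 4.83 to 2.46 and 38.9 to 4.04 CPM in the wild-type pairs, lower in 6 of 6.

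**Figure D4:**
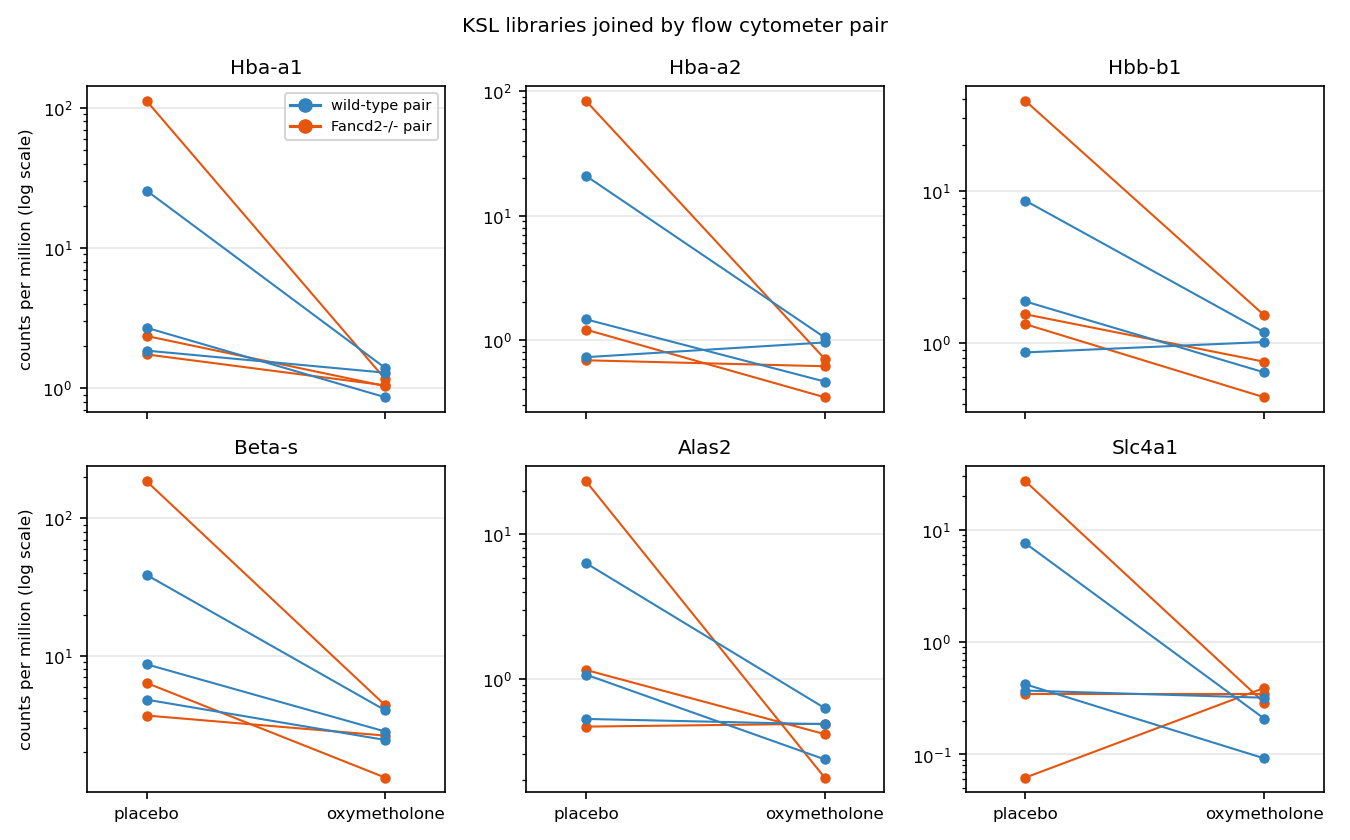
CPM (log axis) of Hba-a1, Hba-a2, Hbb-b1, Beta-s and the red cell genes Alas2 and Slc4a1 in the 3 Fancd2-/- and 3 wild-type KSL pairs, with a line from the placebo to the oxymetholone library of each pair. Hba-a1 is lower on oxymetholone in 6 of 6 pairs, and Fancd2-/- pair 2 and wild-type pair 3 fall from 112 and 25.7 CPM into the range of the others.

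None of these differences passed the test. With the flow cytometer pair as a block, the oxymetholone effect in Fancd2-/- KSL cells was -3.07 ± 1.77 for Hba-a1, -3.41 ± 2.13 for Hba-a2, -2.75 ± 0.92 for Hbb-b1, -2.75 ± 0.95 for Hbb-b2 and -2.84 ± 1.33 for Beta-s (log2, SE, edgeR adjusted p 0.688 to 0.697). Without pair 2 the values were -0.93, -0.76, -1.37, -1.35 and -1.20. The embryonic members did not pass the filter on low counts in KSL cells. Of the 4 members tested 0 were called by edgeR, DESeq2 or limma, 2 had an unadjusted p under 0.05 (Hbb-b1 and Hbb-b2, a single position), and edgeR called 0% of 13259 genes, with 903 at an unadjusted p under 0.05. In wild-type KSL cells the effects were -1.90 ± 1.45 for Hba-a1, -1.62 ± 1.68 for Hba-a2, -1.22 ± 0.82 for Hbb-b1, -1.20 ± 0.85 for Hbb-b2 and -1.85 ± 1.09 for Beta-s (SE, adjusted p 0.999 in the same edgeR fit). Without pair 3 they were -0.95, -0.37, -0.51, -0.43 and -1.24. Again 0 of 4 members were called by any of the 3 tools and 0 had an unadjusted p under 0.05, where 0% of genes were called by edgeR and 357 had an unadjusted p under 0.05.

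The effects of the diet in both genotypes were averaged as a further test, added after the pairs had been seen. The mean effect ran from -1.98 to -2.51 over the 4 members and Beta-s (edgeR adjusted p 0.868 for each), and 0% of genes were called. Unadjusted, p was 0.0153 for Hbb-b1, 0.0179 for Hbb-b2 and 0.0476 for Beta-s in this edgeR fit. Leaving out Fancd2-/- pair 2 and wild-type pair 3 it ran from -0.66 to -0.99 for the members and was -1.27 ± 0.28 for Beta-s (adjusted p = 0.117). That edgeR fit called 33 of 13402 genes, none of them a member or Beta-s, and unadjusted p was 0.0108 for Hba-a1, 0.189 for Hba-a2, 0.0350 for Hbb-b1 and 0.0484 for Hbb-b2. The genotype by oxymetholone interaction ran from -1.17 to -1.79 for the members (adjusted p 0.953 to 0.968). Of the 4 members 0 were called there by edgeR, DESeq2 or limma and 0 had an unadjusted p under 0.05, with 0% of all genes called and 456 at an unadjusted p under 0.05. Without Fancd2-/- pair 2 the sign turned for Hba-a1 (1.02) and Hba-a2 (0.92). The oxymetholone effect in erythroblasts minus that in wild-type KSL cells was 1.39 to 2.67 for the adult members (edgeR adjusted p 0.99998). There 0.0155% of genes were called, and 0 of the members were called by any of the 3 tools or had an unadjusted p under 0.05. For Beta-s it was 2.40 ± 0.90 (SE, edgeR unadjusted p = 0.0280, adjusted p 0.99998).

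Genotype showed the same dependence on single libraries. On placebo, Fancd2-/- KSL cells were 2.09 to 2.13 above wild-type on the log2 scale for the 4 adult members and 2.04 above for Beta-s (edgeR adjusted p 0.378 to 0.514). Without Fancd2-/- placebo 2 the members stood between -1.23 and -2.91, and without wild-type placebo 3 between 3.42 and 4.81. Without both they stood between -0.16 and 0.17, with Beta-s at -0.38. The direction thus rests on a single library, and 0 of the 4 members were called by edgeR, DESeq2 or limma or had an unadjusted p under 0.05, where edgeR called 1.27% of genes (169, and 0 without both libraries) and 2597 had an unadjusted p under 0.05. On oxymetholone the genotypes differed by -0.10 to -0.45 for the members, with 0 of 4 called by any of the 3 tools or at an unadjusted p under 0.05, and 0.128% of genes called.

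In whole marrow, with 1 library per genotype and hence no replicate check, the adult globins were close in level. Hba-a1 stood at 0.936 of the wild-type level in Fancd2-/- marrow (95% interval of counting error 0.934 to 0.938), Hba-a2 at 0.969 (0.967 to 0.972), Hbb-b1 and Hbb-b2 at 1.04 and Beta-s at 0.989. The summed adult level was 0.980 (0.979 to 0.981). The ratios of the embryonic genes were 0.714 (0.436 to 1.16) for Hbb-bh1, 0.966 (0.576 to 1.62) for Hbb-y and 1.35 (0.992 to 1.85) for Hba-x, each with an interval that includes 1.

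**Figure D5:**
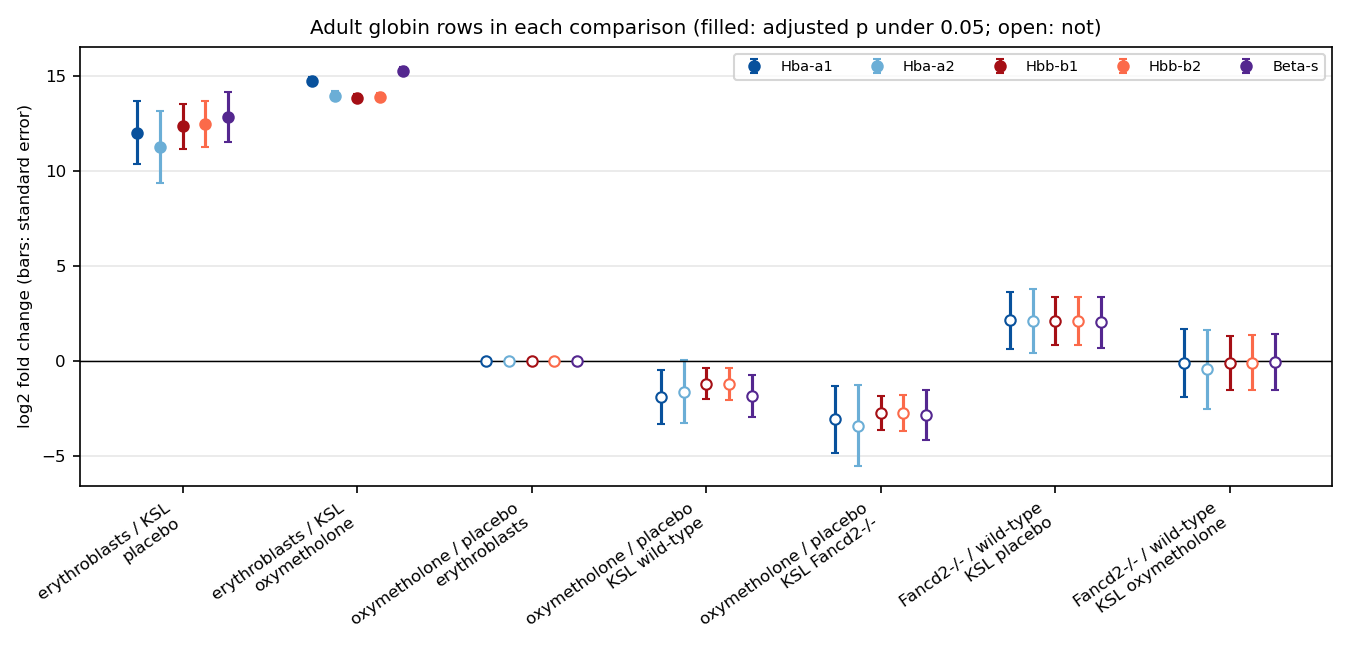
Log2 differences with standard errors from edgeR for the adult globin rows in each comparison, with filled points where the adjusted p was under 0.05. The erythroblast against KSL values, from 11.28 to 15.30, are filled, and those for diet and genotype are open.

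The 2 KSL libraries that stood apart were also the highest in several red cell and neutrophil genes. Summed adult globin stood at 421 CPM in Fancd2-/- placebo 2 and 94.1 CPM in wild-type placebo 3, against 3.45 to 14.8 CPM in the other 10. Alas2, the first haem synthesis enzyme of red cells, read 23.3 and 6.31 CPM there and at most 1.15 CPM elsewhere, and Slc4a1 read 27.2 and 7.61 CPM there and at most 0.422 CPM elsewhere. Ngp, a neutrophil granule gene, read 57.6 and 14.8 CPM there and 2.62 to 8.53 CPM elsewhere. Of 24 late erythroid genes, 6 were highest in these 2 libraries (Slc4a1, Epb4.2, Kel, Spnb1, Alas2 and Trim10), as were 9 of 13 neutrophil genes (Ngp, Ltf, S100a8, S100a9, Lcn2, Mmp8, Mmp9, Chi3l3 and Retnlg). The same held for 0 of 14 stem and progenitor markers, 0 of 10 B cell, 0 of 11 monocyte and 0 of 10 megakaryocyte markers, and for 84 of 11971 genes with a KSL mean of at least 1 CPM (0.702%). Over all 12 KSL libraries the late erythroid list summed to 1034 to 1856 CPM and the neutrophil list to 557 to 1901 CPM. The part of red cell or neutrophil RNA in the globin differences between KSL groups was not tested.

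Globin counts relative to other red cell genes differed between erythroblasts and marrow, and in KSL cells they varied widely over few counts. Adult globin counts per Slc4a1 count were 2.30 to 2.56 in erythroblasts, 21.7 and 24.1 in wild-type and Fancd2-/- marrow, 15.5 in Fancd2-/- placebo 2, 12.4 in wild-type placebo 3 and 10 to 120 in the other 10 KSL libraries. Per Alas2 count they were 10.99 to 11.8 in erythroblasts, 25.2 and 24.7 in marrow, 18.1 in Fancd2-/- placebo 2, 14.9 in wild-type placebo 3 and 8.33 to 37.6 in the other 10. In these other 10 libraries Slc4a1 stood at 0.0622 to 0.422 CPM and Alas2 at 0.207 to 1.15 CPM, so counting error widens both ranges. The ratio of 120 came from Fancd2-/- placebo 3, where Slc4a1 lay below the level of 3 counts (0.0933 CPM). The 2 libraries that stood apart lay within the range of the other 10 on both measures, with that limit. Per Slc4a1 every KSL library lay above the erythroblasts, while per Alas2 the KSL range took in both erythroblasts and marrow.

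Across the 12 KSL libraries, the genes most like the summed Hbb-b1 and Hbb-b2 level were taken from 11957 genes by Pearson's r of log2(TMM-scaled CPM + 0.5). This is a description, since all genes of a library share its cells and its depth. Among them were Alas2 (r = 0.96, Spearman's rho 0.61), Slc4a1 (0.95 and 0.41), Chi3l3, a neutrophil and macrophage gene (0.93 and 0.82), and Ngp (0.91 and 0.73). Without the 2 libraries that stood apart r was 0.43 for Alas2, -0.01 for Slc4a1, 0.64 for Chi3l3 and 0.38 for Ngp, so these likenesses rest in large part on those libraries. Hba-a1 and Hba-a2 followed the beta level with r of 0.98 each, and with 0.71 and 0.69 without those libraries.

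Genes known to control globin transcription differed between erythroblasts and KSL cells, in both directions and with counts that turn on the scaling. Of 31 such regulators tested on placebo, 24 were higher and 6 lower in erythroblasts (edgeR), with a median difference of 1.56 against -0.67 over all genes, and on oxymetholone the counts were the same with a median of 1.57. Over all genes tested, 37.2% were called higher on placebo and 37.6% on oxymetholone. Without normalization 14 regulators were higher and 12 lower on placebo, and 15 and 12 on oxymetholone. Over all genes 2394 were then higher and 9221 lower on placebo, and 2386 and 9292 on oxymetholone. Log2 differences below are TMM-scaled, while CPM are not, so the ratio of 2 CPM values does not give the log2 difference beside it. Gata1, the master erythroid factor, stood at 732.6 ± 28.9 CPM in erythroblasts and 8.26 ± 1.99 CPM in KSL cells (SD, n = 3, log2 difference 7.90 ± 0.19 SE). Klf1, which drives adult beta globin, stood at 1563 ± 129 CPM in erythroblasts (SD, n = 6), at 599 and 548 CPM in marrow, and at 2.51 to 12.9 CPM in KSL cells. Gata2, a factor of early progenitors, fell by 9.99, Myb, another, fell by 5.47, and Bcl11a, a repressor of embryonic beta-like globin, fell by 1.38. Bcl11a stood at 159 ± 9.42 CPM in KSL cells and 23.2 ± 5.27 CPM in erythroblasts, and without normalization it fell by 2.78. For oxymetholone 0 of 30 regulators in erythroblasts, 0 of 31 in Fancd2-/- KSL cells and 0 of 31 in wild-type KSL cells were called by edgeR, with 0, 7 and 0 at an unadjusted p under 0.05. Between genotypes, edgeR gave 11 of 31 regulators an unadjusted p under 0.05 on placebo and 1 on oxymetholone. Over all genes, 2597 and 737 of 13259 had such a p, and 1.27 and 0.128% were called. Gfi1b, a repressor needed for red cell and platelet formation, was the only regulator called between genotypes. It stood at 29.2 ± 4.85 CPM in Fancd2-/- and 57.6 ± 8.93 CPM in wild-type KSL cells on placebo (log2 difference -0.94 ± 0.19, edgeR adjusted p = 0.0373). Without both libraries that stood apart the Gfi1b difference was -0.88 ± 0.25 (edgeR adjusted p = 0.186), and no gene was called in that comparison.

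Most genes that supply or break down haem or handle free chains were higher in erythroblasts, under each scaling. Of 13 such partners in the matrix, 11 were higher and 2 lower in erythroblasts on each diet. Their medians were 5.72 on placebo and 5.82 on oxymetholone, against -0.67 and -0.64 over all genes. Of all genes, 37.2 and 37.6% were called higher. Ahsp, also on this list, was not in the matrix by that name or as Eraf. Slc25a37, the mitochondrial iron importer, rose by 8.32 ± 0.18, Fech, the last enzyme of haem synthesis, by 7.09 ± 0.15, and Abcb10, a transporter of the mitochondrial inner membrane that works with Slc25a37, by 6.92 ± 0.14 on the log2 scale (placebo, SE). Eif2ak1, the kinase that matches globin translation to haem, rose by 5.72 ± 0.13, and Slc25a38, a mitochondrial carrier needed for haem synthesis, by 5.74 ± 0.14. Of the haem oxygenases, which break haem down, Hmox2 fell by 2.64 ± 0.12 and Hmox1, named after its values were seen, rose by 4.75 ± 0.37. Hmox1 is also among the 11 monocyte and macrophage markers, of which 9 were called higher and 0 lower in erythroblasts on placebo. These markers summed to 257 to 314 CPM in erythroblasts and 53.1 to 68.1 CPM in KSL cells. The part of macrophage RNA in the Hmox1 rise was not tested. On oxymetholone Slc25a37 rose by 8.48, Abcb10 by 7.05 and Alas2 by 15.06. For oxymetholone 0 of the 13 were called in erythroblasts, Fancd2-/- KSL cells and wild-type KSL cells by edgeR, with 0, 2 and 0 at an unadjusted p under 0.05, and for genotype 0 were called on placebo and on oxymetholone, with 2 and 0 at that level.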

How the data were processed

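RNA was oligo(dT)-selected and sequenced as 51-base reads, mapped with Bowtie to mm9, per the labels' protocols, and edgeR is named in the submitters' processing notes. The authors deposited a matrix of raw read counts per transcript and a matrix of normalized values, which is treated as a deposited score. Its values were read as counts scaled to the same total in every library and rounded. How reads were assigned to rows is not given in the sources used here. Counts were collapsed to the row with the largest total per symbol, except that Hba-a1 and Hba-a2 were each read at their own GENCODE position. CPM are of the collapsed total, and intervals are exact Clopper-Pearson 95% intervals of counting error. Row starts in the matrix count from 0 and 1 was added.

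Tests used edgeR 4.0.16 (R 4.3.3): robust quasi-likelihood fits, filterByExpr by group, TMM, Benjamini-Hochberg adjustment over all genes tested, and calls at an adjusted p under 0.05. Oxymetholone in KSL cells was fitted over 12 libraries with the flow cytometer pair, given in the series' design text, as a block. Genotype was fitted over the same 12 libraries by group means, and erythroblasts against wild-type KSL cells within each diet. The tests were checked on simulated counts with 200 changed genes. Alternatives were DESeq2 1.42.0, limma 3.58.1 on log2(deposited value + 1), other size factors, globins taken out of the totals, no low-count filter, all transcript rows, copies summed, no block, and each replicate or pair left out. The members, gene lists and tests were chosen with earlier results of these data known, and the treatment of Beta-s and of the 2 KSL libraries that stood apart was added after seeing the data. All 7 members are named throughout; list genes are named by smallest p among those called with a mean of at least 1 CPM and groups that do not overlap, and Klf1 and Bcl11a also for their role. One gene among those most like the beta level is not reported here. Replicates were pools of 5 mice or single mice, except for marrow, which had 1 library per genotype.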

Additional observations from a re-analysis of the deposited data

How the results depend on the processing

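The 4 adult members stayed called higher in erythroblasts than in KSL cells under all alternatives in which their rows were kept apart, from 9.82 to 13.89 (log2) on placebo and from 12.43 to 14.99 on oxymetholone. Copies summed left 3 members called in each, because rows merge, and leaving out replicates gave 5 to 7 on placebo. In these counts the members beyond the adult rows are embryonic genes. They passed the low-count filter only through the erythroblasts, where they are higher, so their calls add nothing. In the other comparisons 0 members were called under every alternative run. Without the replicate block, Hba-a1, Hba-a2, Hbb-b1, Hbb-b2 and Beta-s stood at -5.17, -5.61, -4.04, -4.05 and -4.53 for oxymetholone in Fancd2-/- KSL cells, at -2.94, -3.04, -1.83, -1.84 and -2.44 in wild-type KSL cells, and at -2.24, -2.57, -2.22, -2.21 and -2.08 for the interaction, so the pairing changed no call.

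Signs turned where values lay near 0 or rested on a library. Without both libraries that stood apart, genotype on placebo was -0.0951 for Hba-a1, -0.16 for Hba-a2 and -0.38 for Beta-s, and the interaction without their pairs was 0.0817 for Hba-a1 and 0.0203 for Beta-s. DESeq2 gave 0.0062 for Hbb-b2 between genotypes on oxymetholone. With each replicate left out in turn, the ranges for oxymetholone in erythroblasts were -0.108 to 0.0401 for Hba-a1, -0.11 to 0.0388 for Hba-a2, -0.0252 to 0.0639 for Hbb-b1, -0.0229 to 0.0649 for Hbb-b2, -0.0521 to 0.0871 for Beta-s, -0.46 to 0.0340 for Hbb-y and -0.95 to 0.36 for Hba-x. The interaction ranged from -3.52 to 1.02 for Hba-a1, -4.71 to 0.92 for Hba-a2 and -2.93 to 0.66 for Beta-s. Genotype on placebo ranged from -2.18 to 4.15 for Hba-a1, -2.91 to 4.81 for Hba-a2, -1.23 to 3.42 for Hbb-b1, -1.28 to 3.50 for Hbb-b2 and -1.70 to 3.33 for Beta-s. Genotype on oxymetholone ranged from -0.27 to 0.0389 for Hba-a1, -0.75 to 0.35 for Hbb-b1, -0.75 to 0.40 for Hbb-b2 and -0.41 to 0.21 for Beta-s. The effect in erythroblasts minus that in KSL cells ranged from -0.46 to 0.0636 for Hbb-y and -0.92 to 0.38 for Hba-x. The alpha to beta ratio ranged from 0.27 to 0.55 between erythroblasts and wild-type KSL cells and from -0.0897 to 0.0168 between diets, and with Beta-s the former was -0.51. The Fancd2-/- to wild-type ratio of summed adult globin in marrow was 0.982 on the normalized values.

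Counts over all genes moved more. Oxymetholone in Fancd2-/- KSL cells went from 0 called genes to 16 without the low-count filter, 31 without both pairs and up to 12 with a pair left out, and in wild-type KSL cells to 4 with DESeq2. Genotype on placebo went from 169 to 810 with DESeq2, 11 with the 6 placebo libraries only and 19 to 236 with a replicate left out. Genotype on oxymetholone went from 17 to 86 with DESeq2, 28 with all rows, 0 with 6 libraries and 0 to 8 with a replicate left out. Adult copies cannot be separated where reads are shared, and embryonic genes rest on 4 to 25 counts per erythroblast library.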

Other observations

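Other genes of the globin family were measured in the same libraries. Hbq1b, a theta globin of the alpha row, stood at 90.5 ± 1.56 CPM in erythroblasts (SD, n = 6), at 40.1 and 36.7 CPM in wild-type and Fancd2-/- marrow and at no more than 0.282 CPM in a KSL library, the highest being Fancd2-/- placebo 2. Hbq1a stood at 2.83 ± 0.230 CPM in erythroblasts. Gm5736, listed by RefSeq under the name Hbb-bh2, stood at 0.249 ± 0.135 CPM in erythroblasts and had no count in any KSL library. Cygb, a cytoglobin found outside the red cell line, went the other way, with 3.00 ± 0.668 CPM over the 12 KSL libraries and 0.121 CPM in erythroblasts, and its log2 difference between erythroblasts and KSL cells on placebo was -3.59 ± 0.59 (edgeR adjusted p = 3.01e-05). Mb, the muscle oxygen store, had 1 count in all KSL libraries together and none in erythroblasts.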
